A study of Mus musculus with 4 samples.

Results

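The fibroblasts described here are collagen-rich stromal cells of the mouse olfactory epithelium in which UMIs of Apod, Inmt and Cxcl12 together outnumbered those of Aspn, Omd and Cthrc1. A UMI, or unique molecular identifier, stands for 1 captured transcript molecule, read from its 3′ end. Members were chosen by UMI counts of these and a few other genes: a cell was a member when it had at least 500 detected genes, at most 10% mitochondrial UMIs, at least 10 UMIs of Col1a1, Col1a2 and Col3a1 together, fewer than 10 of Acta2 and at most 2 of Omp. By these limits 233 of 9126 deposited cells were members: 69 of 2703 at postnatal day 0 (P0), 116 of 3220 at P3, 42 of 1787 at P7 and 6 of 1416 at P21. The ages P0, P3 and P7 were compared, and the 6 cells at P21 are given as values only.

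The study used CD-1 mice, which are outbred, and profiled their dissociated olfactory epithelium by droplet-based single-cell RNA sequencing with 1 library per age, and the labels give no allele, transgene or treatment for any group. Its title concerns neurons that help to form the olfactory map, and the sample titles name olfactory sensory neurons, so stromal cells were not its stated target. Per the labels, the tissue was dissociated with papain and sorted samples were loaded; the sources used here give neither the gate of the sort nor the number and sex of the mice. Each age is 1 library, so age, litter, dissociation and library cannot be told apart, and intervals between ages cover counting error only.

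The lamina propria is the connective tissue under the olfactory epithelium, and it carries axon bundles, glands and vessels. Its fibroblasts secrete collagens, proteoglycans and modulators of growth factors, and they border on the mesenchyme that forms the cartilage and bone of the turbinates. Apod encodes apolipoprotein D, a secreted carrier of small lipophilic molecules; Inmt encodes indolethylamine N-methyltransferase, which methylates amines; Cxcl12 encodes a chemokine that signals through the receptor Cxcr4. Sfrp2, a secreted Wnt modulator, and Dcn, or decorin, a proteoglycan that binds collagen fibrils, complete the markers given for these cells.

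The promoters of the 3 defining genes and of Col10a1, a collagen that was high in a few P7 fibroblasts, are shown because they differ in base composition. Sequences are from RefSeq on build GRCm38.p6 and run 5′ to 3′ on the gene's strand, from 250 bases before to 50 after the start. Capitals mark TATAAA on the gene's strand and, on either strand, GGGCGG (GC box), TGTGGT or TGCGGT (Runx motif) and GCCNNNGGC (AP-2 motif). Apod lies on the minus strand at chr16:31314759-31315058, Inmt on the minus strand at chr6:55174941-55175240, Cxcl12 on the plus strand at chr6:117168285-117168584 and Col10a1 on the plus strand at chr10:34389731-34390030.
Apod: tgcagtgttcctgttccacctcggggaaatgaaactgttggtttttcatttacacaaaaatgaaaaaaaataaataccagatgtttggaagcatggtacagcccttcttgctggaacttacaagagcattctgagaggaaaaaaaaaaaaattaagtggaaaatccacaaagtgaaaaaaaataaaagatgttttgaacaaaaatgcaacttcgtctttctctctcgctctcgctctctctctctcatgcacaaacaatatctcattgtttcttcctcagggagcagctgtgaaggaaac
Inmt: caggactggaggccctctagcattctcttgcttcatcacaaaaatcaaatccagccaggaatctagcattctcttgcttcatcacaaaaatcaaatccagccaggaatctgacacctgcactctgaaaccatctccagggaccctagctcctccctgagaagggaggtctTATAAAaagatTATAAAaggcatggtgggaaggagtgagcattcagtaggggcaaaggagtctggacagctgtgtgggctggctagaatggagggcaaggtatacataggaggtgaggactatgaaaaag
Cxcl12: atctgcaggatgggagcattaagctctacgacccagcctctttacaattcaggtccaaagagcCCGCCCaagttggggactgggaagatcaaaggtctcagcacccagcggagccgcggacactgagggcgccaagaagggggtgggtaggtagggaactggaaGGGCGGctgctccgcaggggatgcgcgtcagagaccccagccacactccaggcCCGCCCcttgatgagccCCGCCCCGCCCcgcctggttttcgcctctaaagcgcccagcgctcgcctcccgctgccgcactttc
Col10a1: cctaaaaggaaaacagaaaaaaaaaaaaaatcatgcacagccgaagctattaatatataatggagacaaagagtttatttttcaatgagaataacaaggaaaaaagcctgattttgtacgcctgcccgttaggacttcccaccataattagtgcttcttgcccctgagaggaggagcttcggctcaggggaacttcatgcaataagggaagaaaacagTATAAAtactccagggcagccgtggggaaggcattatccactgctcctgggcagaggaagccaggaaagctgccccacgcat
The Cxcl12 promoter was 64.7% G and C, with 20 CpG dinucleotides and 5 GC boxes. The Apod promoter was 37.3% G and C, with 4 CpG dinucleotides and none of the searched motifs. The Inmt promoter held 2 TATAAA words, the first of them 80 bases before the RefSeq start, and 0 CpG dinucleotides. The GENCODE annotation starts Inmt farther upstream, at chr6:55175043, so this distance depends on the annotation. The Col10a1 promoter held 1 TATAAA word, 32 bases before the start. Of the 27025 promoters searched, 8.88% held TATAAA, 35.9% a GC box, 22.5% a Runx motif and 16.5% an AP-2 motif, and in the 4 promoters shown no base lay in motifs of different kinds, while 2 of the Cxcl12 GC boxes share a base.

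The 4 libraries held 6861044 to 17770838 UMIs, and 2691 of 2703, 3220 of 3220, 1785 of 1787 and 1414 of 1416 cells passed the gene and mitochondrial limits at P0, P3, P7 and P21. Members held 146690, 368930 and 135008 UMIs at P0, P3 and P7, with medians of 1746, 2871.5 and 2674.5 UMIs per cell, so the P0 members were the shallowest. Cell barcodes were shared by 68 cells of the P0 and P3 libraries and by 1 to 9 cells of each other pair, and 2 members, both at P3, carried a shared barcode. Xist, transcribed from the inactive X chromosome of females, stood at 5.98, 271 and 374 CPM over all cells at P0, P3 and P7, and Y-linked genes summed to 126, 105 and 104 CPM. The P0 library thus had little Xist beside the later libraries, and the part of this in differences between ages was not tested. CPM here is the UMIs of a gene scaled to 1000000 UMIs of its class.

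Of the cells that passed the limits, members were 2.56% at P0, with a 95% exact binomial interval of 2.0 to 3.23%. The P3 library had 3.60% (interval 2.99 to 4.31%), the P7 library 2.35% (interval 1.70 to 3.17%) and the P21 library 0.424% (interval 0.156 to 0.921%). The intervals at P0 and P7 overlap with each other and with that at P3, and the interval at P21 lies below all of them. With at least 30 collagen UMIs required, the P0 share was 0.520% (interval 0.285 to 0.871%), below the intervals at P3 (1.48 to 2.46%) and P7 (1.14 to 2.39%). Among all collagen-gated cells, members were 69 of 160 at P0 (43.1%), 116 of 504 at P3 (23.02%) and 42 of 156 at P7 (26.9%). The rest were skeletogenic stromal cells (46, 178 and 49 cells, in which Aspn, Omd and Cthrc1 outnumbered Apod, Inmt and Cxcl12), Acta2-high cells (39, 193 and 61 cells with at least 10 Acta2 UMIs) and 6, 17 and 4 ties. A further count left out cells under 1500 UMIs, thinned the rest to 1500 and lowered the limits (collagen and Acta2 to 5 UMIs, Omp to 1). Members were then 33.1, 22.7 and 28.3% of the collagen-gated cells at P0, P3 and P7. The sort can set all of these shares.

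**Figure D1:**
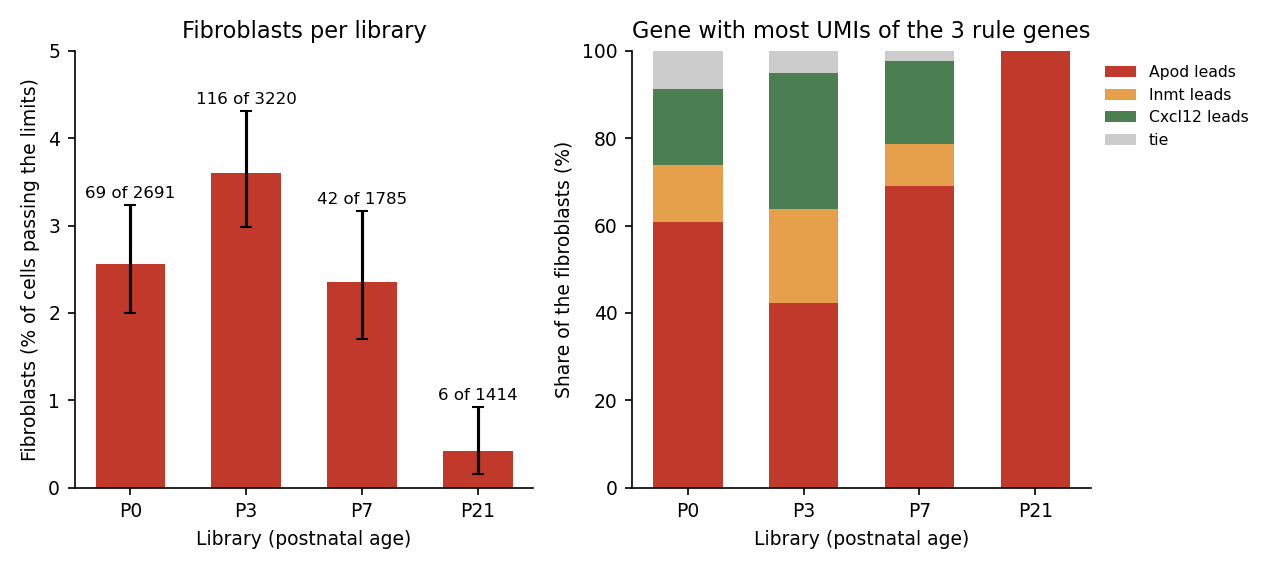
Left, fibroblasts as a percentage of the cells passing the gene and mitochondrial limits in each library, with exact 95% binomial intervals; right, the share of fibroblasts in which Apod, Inmt or Cxcl12 had most UMIs. The share of cells lies between 2.35 and 3.60% at P0, P3 and P7 and at 0.424% at P21, and Apod leads in 42.2% of the fibroblasts at P3 and in all 6 at P21.

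The margins of the rule were thin in some cells. The median lead of Apod, Inmt and Cxcl12 over Aspn, Omd and Cthrc1 was 6 UMIs at P0, 8 at P3 and 19 at P7. The lead was 1 UMI in 6, 12 and 1 members, and 3, 11 and 3 cells fell outside by 1 UMI the other way. Summed collagen UMIs were 10 to 12 in 13, 7 and 3 members, and 3, 4 and 1 cells missed the limit with 7 to 9. Acta2 UMIs were 7 to 9 in 6, 17 and 3 members, and 6, 18 and 7 cells stood just outside with 10 to 12.

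The 5 given markers were checked first, with no test, since the rule used 3 of them. Apod stood at 3456 CPM in P0 fibroblasts (exact Poisson interval 3162 to 3771), 2569.6 at P3 (2409 to 2739) and 8874 at P7 (8378 to 9391), against 79.7, 218 and 101 CPM in skeletogenic stroma and 943, 995 and 2351 CPM in Acta2-high cells of the same libraries. Inmt stood at 1398, 1136 and 2622 CPM in fibroblasts, against 7.25, 4.71 and 10.1 CPM in skeletogenic stroma and 1364, 1444 and 2839 CPM in Acta2-high cells. The fibroblasts stood far above the skeletogenic stroma on both genes in all 3 libraries, and above the Acta2-high cells on Apod only.

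Cxcl12 stood at 777, 957 and 844 CPM in fibroblasts, against 28.98, 36.5 and 101 CPM in skeletogenic stroma and 1245, 1177 and 1247 CPM in Acta2-high cells. Sfrp2 stood at 2120.1, 3269 and 1215 CPM in fibroblasts, against 1079.7, 967 and 1413 CPM in skeletogenic stroma and 2655, 2833 and 2761 CPM in Acta2-high cells. Dcn stood at 2529, 1911 and 3437 CPM in fibroblasts, against 1130.4, 835 and 565 CPM in skeletogenic stroma and 2554, 1934 and 3020.4 CPM in Acta2-high cells. Cxcl12 was therefore higher in Acta2-high cells than in fibroblasts in all 3 libraries, and Sfrp2 at P7 was lowest in the fibroblasts. Apod, Inmt and Cxcl12 chose the members over the skeletogenic cells, so these differences were set by the rule.

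**Figure D2:**
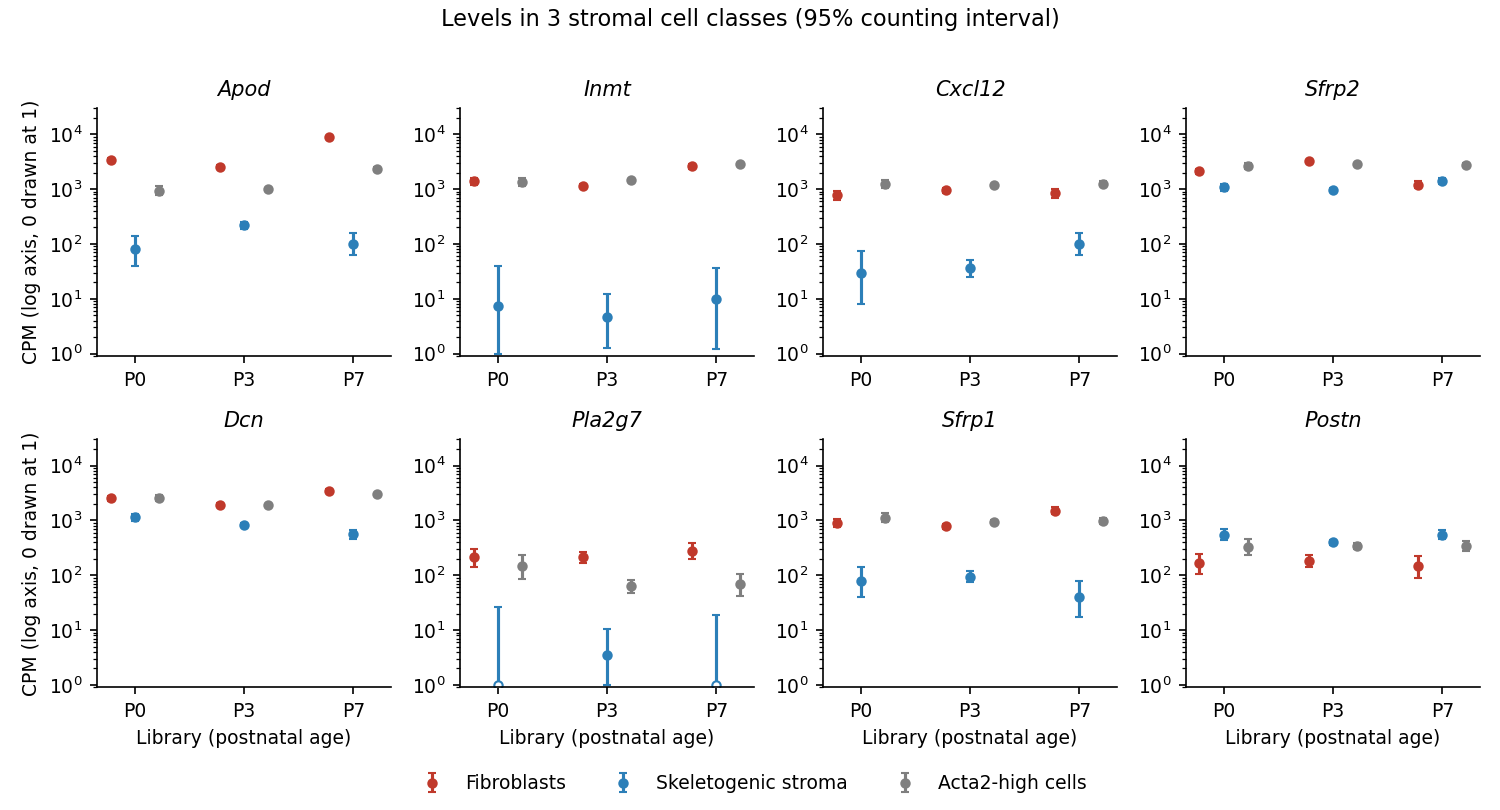
Levels in CPM (log axis) of 8 genes in fibroblasts, skeletogenic stroma and Acta2-high cells of the P0, P3 and P7 libraries; bars are exact 95% Poisson intervals and an open symbol drawn at 1 has no UMI. Apod, at 3456, 2569.6 and 8874 CPM in fibroblasts, lies above its levels in the other classes, and Inmt and Cxcl12 lie higher in fibroblasts and Acta2-high cells than in skeletogenic stroma; the rule used all 3 genes.

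Fibroblasts held 63.1% of all Apod UMIs of the P0 library (95% exact binomial interval 59.7 to 66.5%), 41.0% at P3 (39.0 to 43.1%) and 58.2% at P7 (56.0 to 60.3%). These intervals treat UMIs as independent draws and do not cover the spread between cells. The rule chose members by UMIs of Apod, Inmt and Cxcl12, so it raised their shares of these UMIs, which are given as description. The fibroblasts held 44.9, 22.97 and 27.4% of Inmt UMIs and 32.6, 21.8 and 18.7% of Cxcl12 UMIs, while Acta2-high cells held 38.9, 60.8 and 59.9% of Cxcl12 UMIs. With each cell thinned to 1500 UMIs, which left out 20, 1 and 8 shallower members, Apod was detected in 69.4, 60.0 and 85.3% of the fibroblasts at P0, P3 and P7. In mature neurons, which should lack Apod, the thinned shares were 3.86, 2.29 and 3.04%. The rule also raised Apod detection in the members, so the distance from neurons was set in part by the rule. Before thinning, the medians of these cells were 2260, 2898 and 3756 UMIs for fibroblasts and 4705, 6683 and 5346 UMIs for neurons, and Apod was detected in 82.6, 76.7 and 90.5% of all members.

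Markers of other cell types were summed in the fibroblasts. The 5 erythrocyte markers had no UMI in any of the 3 libraries, which allows up to 20.5, 8.13 and 22.2 CPM (3 UMIs of the class), and the 13 leukocyte markers summed to 13.6, 24.4 and 7.41 CPM with Ptprc at 0 throughout. The 10 endothelial markers summed to 88.6, 48.8 and 88.9 CPM, with 4, 7 and 2 of them detected and Tek and Esam at 0 in all 3 libraries, against 57.9, 81.8 and 103 CPM in cells with few collagen UMIs. The 5 tendon markers summed to 54.5, 249 and 348 CPM in fibroblasts, with 3, 4 and 3 detected, against 0, 19.997 and 35.3 CPM in skeletogenic stroma, 119, 108 and 95.7 CPM in Acta2-high cells and 3.19, 7.497 and 3.49 CPM in cells with few collagen UMIs, so they were highest in the fibroblasts at P3 and P7. The 12 chondrocyte markers summed to 68.2, 119 and 51.8 CPM, with 4, 8 and 4 detected and Matn1, Matn3, Hapln1 and Ucma at 0 in all 3. The 11 mature neuron markers, Omp among them, summed to 682, 320 and 385 CPM in fibroblasts, against 8959, 6249 and 10379 CPM in cells with few collagen UMIs, and the 10 immature neuron markers to 1704, 1857 and 985 CPM against 11569, 11030 and 11154 CPM. The rule limits Omp in members and not in cells with few collagen UMIs, so it lowers the mature neuron sum of the fibroblasts. The 7 neuronal precursor markers summed to 232, 390.3 and 133 CPM in fibroblasts, the 11 ensheathing glia and Schwann cell markers to 74.99, 236 and 148 CPM and the 6 horizontal basal cell markers to 205, 92.2 and 37.03 CPM, each below its sum in cells with few collagen UMIs of the same library. Contractile and mural markers, Acta2 among them, summed to 2543, 2486 and 1622 CPM in fibroblasts, against 18610, 17501 and 14695 CPM in Acta2-high cells.

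One member at P3, with 7002 UMIs, held 827 UMIs of Bpifa1, a secreted epithelial product, and 15 of Epcam beside 16 of Apod and 14 of Col1a1. This cell gave 99.9% of the Bpifa1 UMIs of the P3 fibroblasts, and its 30 Reg3g UMIs were 88.2% of theirs. The summed sustentacular and gland markers, Bpifa1 among them, stood at 320 CPM at P0, 2564 at P3 and 156 at P7. Doublets were not called, and Bpifa1, Reg3g and Epcam are given with this cell named.

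Fibroblasts were set against the skeletogenic stroma of the same libraries to describe which genes outside the rule differ. Each class of each library gave 1 sum of UMIs, and edgeR's quasi-likelihood test was run on these sums with the library as a block and Benjamini-Hochberg adjustment. Of 2947 genes tested outside the rule, 172 were at least 2-fold higher in fibroblasts (5.84%) and 77 at least 2-fold lower (2.61%) at an adjusted p of 0.05 or less. The cells were split by genes of the same cells, so the classes were made to differ, and the test ranks genes and does not ask whether the classes are distinct.

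On the fibroblast side Pla2g7, which encodes the platelet-activating factor acetylhydrolase, stood at 211, 211 and 281 CPM in fibroblasts, against 0, 3.53 and 0 CPM in skeletogenic stroma (log2 fold change 6.28 ± 0.42 SE, edgeR adjusted p = 1.11e-06). Fibroblasts lay above skeletogenic stroma in every library, and the gene was nearly absent from the skeletogenic cells.

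Of the other genes with large fold changes, Adora2b, an adenosine receptor, had a log2 fold change of 5.56, Adra2c, an adrenergic receptor, 4.23, Ntrk2, the receptor for brain-derived neurotrophic factor, 4.2, and Tnfrsf21, the death receptor DR6, 4.07. Ntrk2 stood at 205, 252 and 156 CPM in fibroblasts, against 14.5, 10.6 and 15.1 CPM in skeletogenic stroma (edgeR adjusted p = 1.81e-06). Galnt16, which starts mucin-type glycosylation, Limch1, a regulator of actomyosin, Tmem37 and Col7a1, the collagen of anchoring fibrils, were also among the 12 genes with the largest fold change, with 5.66 for Galnt16. Bpifa1, also of the 12, stood at 95.4, 2244 and 14.8 CPM in fibroblasts, against 94.2, 8.23 and 5.05 CPM in skeletogenic stroma, and its P3 value came from the 1 cell described above.

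Genes known from cartilage and bone were among the 12 lowest. Acan, the aggrecan core protein of cartilage, stood at 0, 2.71 and 0 CPM in fibroblasts, against 196, 200 and 202 CPM in skeletogenic stroma (log2 fold change -6.67 ± 0.49 SE, edgeR adjusted p = 1.72e-06). Alpl, tissue-nonspecific alkaline phosphatase, stood at 0, 32.5 and 0 CPM in fibroblasts, against 341, 301 and 530 CPM in skeletogenic stroma (log2 fold change -4.26 ± 0.43 SE, edgeR adjusted p = 2.23e-05). Col2a1 and Col9a2, cartilage collagens, Matn4, a matrilin, Mia, a cartilage-derived secreted protein, Sp7 and Dlx5, osteoblast transcription factors, Ostn, or osteocrin, Tnc, or tenascin-C, Rbp4, a retinol carrier, and Dapk2, a kinase, made up the rest of the 12 lowest, with log2 fold changes from -5.92 for Col2a1 to -3.19 for Mia.

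**Figure D3:**
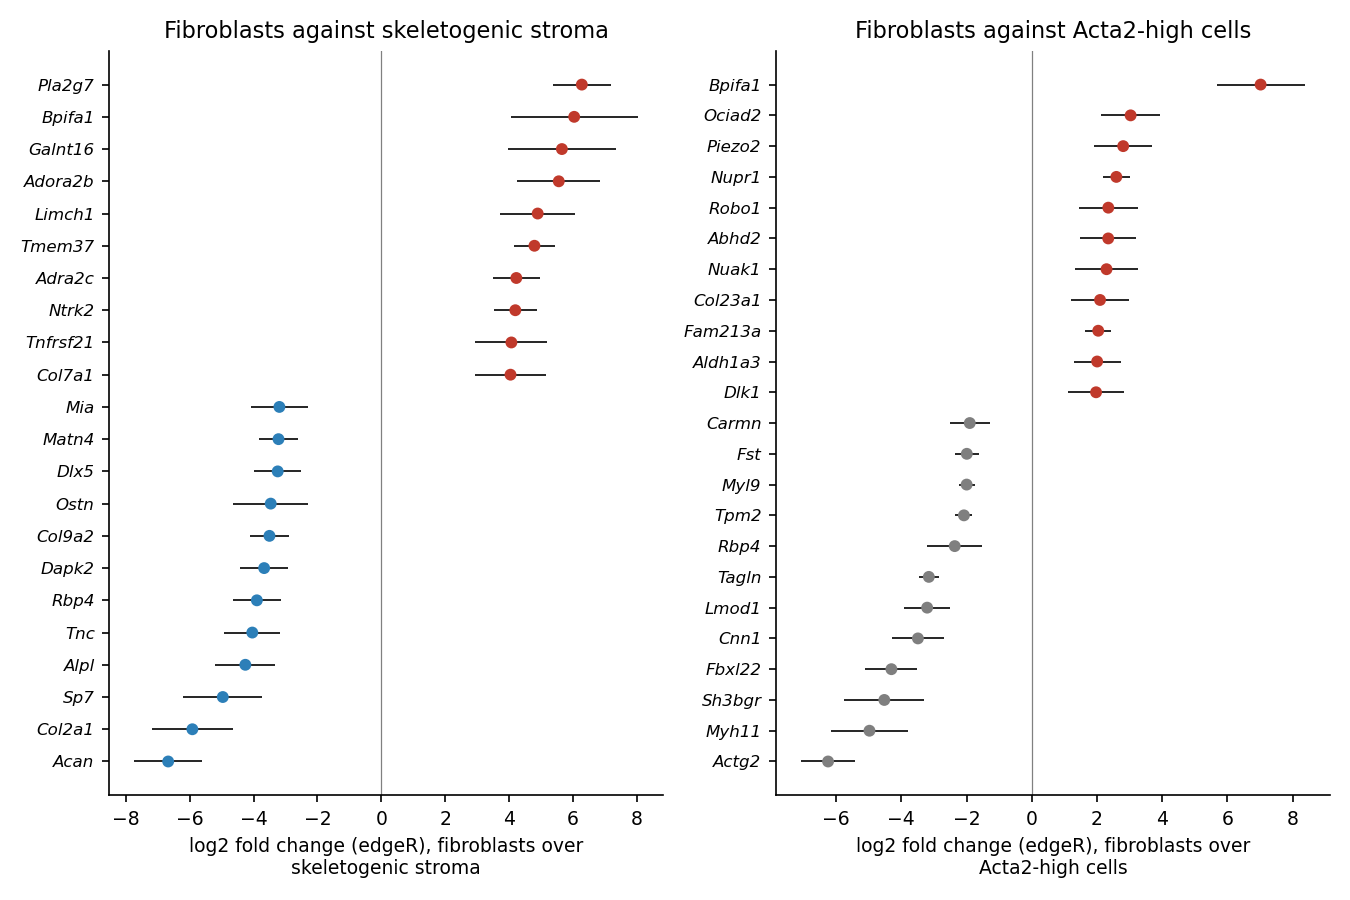
Log2 fold change (edgeR, fibroblasts over the other class, with 95% intervals) of genes from the 12 highest and the 12 lowest called, against skeletogenic stroma (left, 10 higher and 12 lower genes drawn) and against Acta2-high cells (right, 11 and 12 drawn), from 3 libraries each. Cartilage and bone genes such as Acan (-6.67) lie on the skeletogenic side and contractile genes such as Actg2 (-6.25) on the Acta2-high side.

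Matrix genes were divided by kind. Of 10 measured basement membrane genes, 5 were higher and none lower in fibroblasts, with a median log2 difference of 1.19. Col4a1, a type IV collagen chain, stood at 368, 507 and 711 CPM in fibroblasts, against 50.7, 92.9 and 70.7 CPM in skeletogenic stroma (edgeR adjusted p = 2.19e-06). Its partner chain Col4a2 stood at 429, 469 and 807 CPM in fibroblasts, against 28.98, 91.8 and 90.9 CPM in skeletogenic stroma (edgeR adjusted p = 3.88e-06). Lama2, Lamb1 and Nid1, 2 laminin chains and a nidogen, were the other 3. Of 11 interstitial collagens outside the fibrillar group, Col6a1, Col14a1, Col23a1 and Col26a1 were higher and Col9a2 and Col12a1 lower. Col14a1, a fibril-associated collagen, stood at 354, 553 and 718 CPM in fibroblasts, against 0, 55.3 and 30.3 CPM in skeletogenic stroma (edgeR adjusted p = 2.88e-06).

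Of 4 measured fibrillar collagens outside the rule, Col2a1 was the 1 called, and it was lower. Among 13 elastic fibre genes Fbn1, Fbn2 and Mfap5 were higher, and Fbn2, or fibrillin-2, stood at 470.4, 434 and 385 CPM in fibroblasts, against 116, 189 and 121 CPM in skeletogenic stroma (edgeR adjusted p = 0.000163). Among 15 matricellular genes Sparcl1 and Tgfbi were higher and Tnc, Postn, Smoc2 and Matn4 lower. Postn, or periostin, stood at 164, 182 and 148 CPM in fibroblasts, against 551, 401 and 550.2 CPM in skeletogenic stroma (edgeR adjusted p = 0.000132). Of 6 small leucine-rich proteoglycans, Dcn was higher (log2 fold change 1.63 ± 0.22 SE, edgeR adjusted p = 0.000253) and Epyc, found in cartilage, lower.

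Secreted signalling genes went in both directions. Among 11 genes of the Wnt list, Sfrp1, Wnt6 and Igfbp4 were higher and Sfrp4, Wif1 and Rspo3 lower. Sfrp1, a secreted Wnt modulator, stood at 913, 778 and 1511 CPM in fibroblasts, against 79.7, 94.1 and 40.4 CPM in skeletogenic stroma (edgeR adjusted p = 2.17e-06). Wnt6, a ligand, stood at 109, 67.8 and 163 CPM in fibroblasts, against 0, 2.35 and 25.2 CPM in skeletogenic stroma (edgeR adjusted p = 0.000239). Of 9 genes of the insulin-like growth factor axis, the binding proteins Igfbp2, Igfbp4, Igfbp6 and Igfbp7 were higher and none was lower, with a median of 0.52. Bmp4, a ligand, and Fst, or follistatin, an activin antagonist, were higher, and Gdf10 and Bambi lower, among 9 genes of the TGF-beta and BMP list.

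Of 7 measured retinoic acid genes, Aldh1a2, Crabp1, Fabp5 and Rarres2 were higher and Rbp4 lower. Aldh1a2, which makes retinoic acid, stood at 191, 268 and 252 CPM in fibroblasts, against 14.5, 44.7 and 35.3 CPM in skeletogenic stroma (log2 fold change 2.74 ± 0.24 SE, edgeR adjusted p = 5.69e-06). Crabp1, a cellular carrier of retinoic acid, stood at 136, 189.7 and 111 CPM in fibroblasts, against 36.2, 22.4 and 15.1 CPM in skeletogenic stroma (edgeR adjusted p = 4.14e-05), and 1 cell held 73.3% of its P7 UMIs. The receptors Pdgfra, Pdgfrb, Tgfbr2 and Eng were higher among 11 growth factor receptors measured and none was lower. Serping1, an inhibitor of complement, and Clu, or clusterin, were higher among 4 complement genes, and Clu stood at 314, 152 and 341 CPM in fibroblasts, against 7.25, 16.5 and 15.1 CPM in skeletogenic stroma (edgeR adjusted p = 4.43e-06).

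Of 31 measured craniofacial and mesenchymal factors, 7 were higher (Tfap2b, Osr2, Pax9, Nr2f2, Tbx2, Zeb1 and Hes1) and 6 lower (Runx2, Sp7, Dlx5, Sox9, Pax3 and Klf2) in fibroblasts, with a median of 0.17. Tfap2b, an AP-2 factor, stood at 532, 298 and 837 CPM in fibroblasts, against 14.5, 51.8 and 106 CPM in skeletogenic stroma (edgeR adjusted p = 6.33e-06). Runx2, the osteoblast factor, stood at 20.5, 21.7 and 44.4 CPM in fibroblasts, against 116, 120 and 273 CPM in skeletogenic stroma (edgeR adjusted p = 5.25e-05). Of pan-tissue fibroblast markers, Col14a1, Pdgfra, Pdgfrb, Thy1, Cd248, Mfap5 and Scara5 were higher and Gpx3 and Npnt lower among 12 measured. Pi16, a marker of adventitial fibroblasts, had 0, 1 and 0 UMIs in the fibroblasts of P0, P3 and P7, and Ly6a had 1, 1 and 2.

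Promoters were found for 117 of the 172 genes higher in fibroblasts and for 57 of the 77 lower ones. A Runx motif stood in 11.97% of the promoters of the higher genes and 19.3% of those of the lower genes, and in 20.01% of 2259 promoters of the tested genes. An AP-2 motif stood in 27.4 and 26.3% of them, and in 24.5% of the tested genes' promoters. These are matches of letters in 300 bases, and the differences were not tested.

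Some calls against the skeletogenic stroma were lost when a library was left out. Such a fit has fewer sums, so a call can be lost through fewer data alone. Whether these differences came from the library left out was not tested. Without the P0 library, Adamts2, Angptl2, Apoe, Cd248, Col23a1, Dlk1, Eng, Epyc, Fbn1, Fst, Hes1, Klf2, Lama2, Loxl2, Ptges, Rspo3, Tbx2, Tgfbi, Tgfbr2, Timp1 and Zeb1 were no longer called. Without P3, Adamts2, Bpifa1, Cd248, Eng, Fabp5, Fst, Gdf10, Klf2, Lama2, Loxl2, Ly6e, Ndn, Plat, Smoc2 and Tgfbi were not called, and without P7, Eng, Ndn and Zeb1 were not. These lists hold only named genes that were still tested, and further genes fell below the filter on low counts. Of the 172 higher and 77 lower genes, 109 and 45 were called again without P0. Without P3 these numbers were 116 and 62, and without P7 156 and 67. Leaving out P7 gave 265 higher and 120 lower of 4375 genes tested.

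Against the Acta2-high cells, 69 of 3705 genes tested outside the rule were higher in fibroblasts (1.86%) and 67 lower (1.81%). The classes were divided at 10 Acta2 UMIs, so contractile genes were made to differ by the split. Actg2, a smooth muscle actin, stood at 0, 2.71 and 14.8 CPM in fibroblasts, against 476, 356 and 376 CPM in Acta2-high cells (log2 fold change -6.25 ± 0.39 SE, edgeR adjusted p = 1.6e-09). Myh11, smooth muscle myosin, stood at 0, 0 and 22.2 CPM in fibroblasts, against 119, 201 and 106 CPM in Acta2-high cells (log2 fold change -4.98 ± 0.57 SE, edgeR adjusted p = 7.87e-06). Cnn1, Lmod1, Tagln, Tpm2 and Myl9, which encode contractile proteins, Carmn, a smooth muscle noncoding RNA, Sh3bgr, Fbxl22, Rbp4 and Fst completed the 12 lowest.

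Outside the contractile genes, the Wnt modulators Rspo1 and Sfrp4, the growth factors Fgf7 and Bmp2 and the chemokine Cxcl5 were also lower in fibroblasts. Rspo1 stood at 95.4, 144 and 88.9 CPM in fibroblasts, against 384, 355 and 420.3 CPM in Acta2-high cells (edgeR adjusted p = 1.86e-05). Fst stood at 143, 149 and 104 CPM in fibroblasts, against 649.9, 526 and 499 CPM in Acta2-high cells (edgeR adjusted p = 1.92e-07), so its order was Acta2-high cells above fibroblasts, and fibroblasts above skeletogenic stroma at 43.5, 48.2 and 65.6 CPM.

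On the fibroblast side Nupr1, a stress-responsive nuclear protein, stood at 449.9, 501 and 800 CPM in fibroblasts, against 128, 84.8 and 103 CPM in Acta2-high cells (log2 fold change 2.6 ± 0.19 SE, edgeR adjusted p = 2.15e-08). Piezo2, a mechanically gated channel, stood at 129.5, 46.1 and 215 CPM in fibroblasts, against 36.6, 10.8 and 10.3 CPM in Acta2-high cells (log2 fold change 2.8 ± 0.43 SE, edgeR adjusted p = 0.000233). For both genes the fibroblasts lay above the Acta2-high cells in every library, which the choice of the 12 genes required. Ociad2, Robo1, a receptor for Slit ligands, Abhd2, Nuak1, Col23a1, Fam213a, Aldh1a3, which makes retinoic acid, and Dlk1, an imprinted Notch-related ligand, also stood among the 12 largest, and Bpifa1 headed them with its P3 UMIs in 1 cell.

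Among the lists, Pdgfra and Lpar1 were higher of 14 growth factor receptors, Nid1 and Nid2 of 11 basement membrane genes, and Pdgfra, Thy1, Scara5 and Coch of 14 pan-tissue fibroblast markers, in which Gpx3 and Cxcl5 were lower. Of 19 xenobiotic and lipid-handling genes Lpl was higher and Gpx3, Gstm1, Fmo1 and Hpgd lower. Pdgfra, a receptor for platelet-derived growth factor that marks many fibroblasts, stood at 239, 192 and 244 CPM in fibroblasts, against 119, 58.5 and 64.9 CPM in Acta2-high cells (edgeR adjusted p = 7.07e-05). Tbx2 was the 1 factor called of 33, and it was higher. Its call was lost with DESeq2, with no filter on low counts and with no library block. Over all 3705 genes tested 1.86% were higher and 1.81% lower, and the lists were not tested against these shares.

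Without P0, the calls of Fgf7, Prelp and Thy1 against Acta2-high cells were lost, without P3 those of Carmn, Col16a1, Ifitm1 and Thy1, and without P7 those of Ecm1, Gpx3, Hpgd, Igfbp3, Lpl, Scara5 and Tbx2. These lists hold only named genes that were still tested, and further genes fell below the filter on low counts. Of the 69 higher and 67 lower genes, 62 and 58 were called again without P0. Without P3 these numbers were 40 and 42, and without P7 48 and 52. DESeq2 called 21 higher and 25 lower genes in this comparison, and edgeR with no library block 26 and 36.

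The fibroblasts also differed among themselves in which of the 3 genes led. Apod had most UMIs in 42 of 69 members at P0 (60.9%, 95% exact binomial interval 48.4 to 72.4%), 49 of 116 at P3 (42.2%, 33.1 to 51.8%) and 29 of 42 at P7 (69.0%, 52.9 to 82.4%). Cxcl12 led in 12, 36 and 8 members (17.4, 31.0 and 19.05%), Inmt in 9, 25 and 4 (13.0, 21.6 and 9.52%), and the rest were ties. UMIs of all 3 genes were found in 30.4, 27.6 and 47.6% of members. The genes split the cells, so what follows is a description, by a rule chosen after the values were seen.

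Among 336 genes of the lists with at least 20 UMIs in these cells, 20 differed at least 4-fold in the mean over libraries and lay on the same side in all 3 libraries. The 11 on the Apod side were Col10a1, Coch, Ecm1, Wnt6, Wif1, Bmp7, Lpl and Fmod, and Birc5, Ube2c and Nusap1 of the cell division list. At P7 none of Birc5, Ube2c, Nusap1, Wif1 and Bmp7 had a UMI in the 8 Cxcl12-led cells, which allows up to 191 CPM. In Apod-led cells they stood at 29.9, 39.8, 19.9, 59.7 and 129 CPM at P7, so their side there is not settled. Division genes varied, with log2 differences of Apod-led over Cxcl12-led cells of 1.88 for Cdk1, 0.12 for Top2a and -0.58 for Ccnb2. Lpl, or lipoprotein lipase, stood at 639, 506 and 1025 CPM where Apod led, against 139, 60.7 and 208 CPM where Cxcl12 led. Coch, or cochlin, a secreted matrix protein, stood at 64.95, 321 and 289 CPM where Apod led and had no UMI where Cxcl12 led. No UMI there allows up to 128, 32.0 and 191 CPM (exact Poisson intervals), so the P0 levels cannot be told apart.

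The 9 on the Cxcl12 side included Dlk1, Msx1, Gpx3, Plagl1, Cdkn1c, Cxcl5, Tgfb3 and Ly6e. Gpx3 rests on 5, 6 and 7 UMIs where Cxcl12 led, and 1 cell held 66.7% of its P0 and 100% of its P7 UMIs in fibroblasts. Cxcl5 at P7 had 1 UMI where Apod led and 1 where Cxcl12 led. Cdkn1c, an imprinted inhibitor of the cell cycle, stood at 259.8, 715 and 109 CPM where Apod led, against 1879, 2619.5 and 2128 CPM where Cxcl12 led. Dlk1 stood at 10.8, 55.5 and 0 CPM where Apod led, against 209, 503 and 934 CPM where Cxcl12 led. Msx1, a homeobox factor of craniofacial mesenchyme, stood at 0, 36.99 and 0 CPM where Apod led, against 418, 199 and 311 CPM where Cxcl12 led. Sfrp2, outside this choice, stood at 1137, 2195 and 587 CPM where Apod led, 3176, 3479 and 1869 CPM where Inmt led and 4733, 4987 and 4099 CPM where Cxcl12 led, the same order in all 3 libraries.

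**Figure D4:**
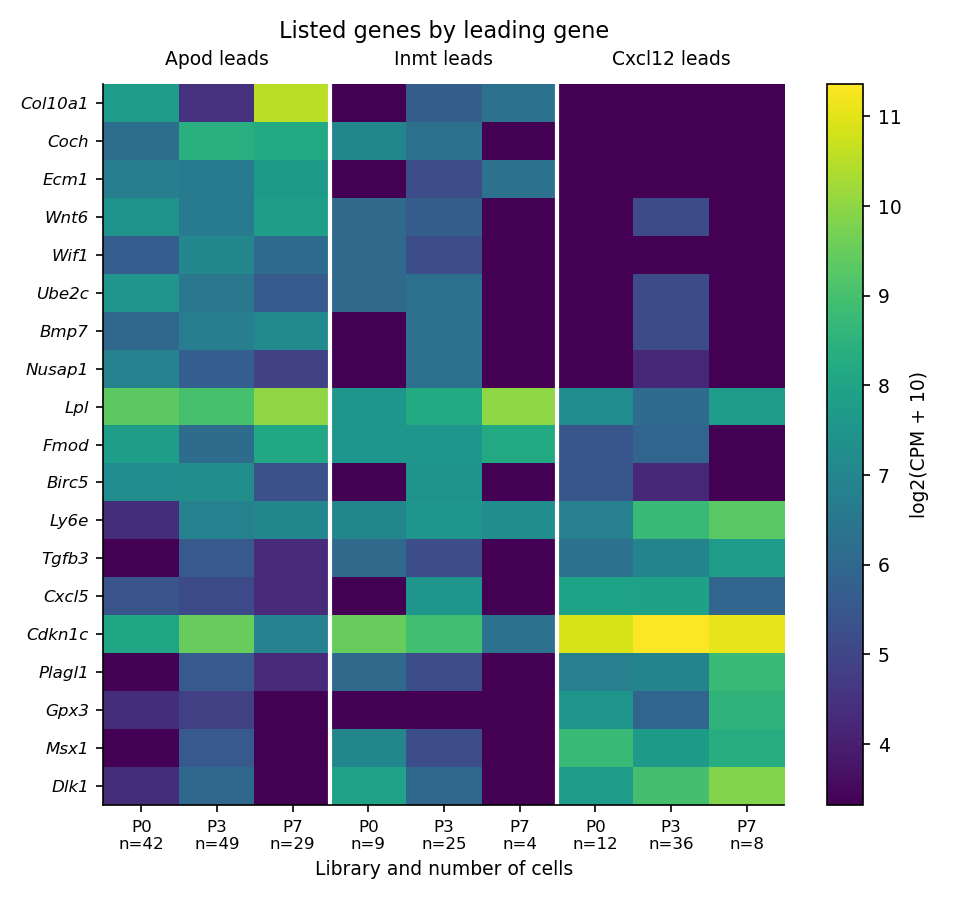
Levels, as log2(CPM + 10), of 19 of the 20 listed genes that differed at least 4-fold between fibroblasts led by Apod and those led by Cxcl12, in the P0, P3 and P7 libraries. Col10a1 and Coch have no UMI where Cxcl12 leads, and Cdkn1c and Dlk1 are higher there than where Apod leads in each library.

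Across ages, P7 fibroblasts were compared with P0 fibroblasts as levels of summed UMIs, with no test. Genes were taken as measured where either library had 50 CPM or more from 20 UMIs or more, and a gene was called when log2 of the ratio of CPM + 10 was at least 1 in size, a scale that understates changes of low genes. Of 1468 genes measured, 73 were higher at P7 (4.97%) and 93 lower (6.34%), with a median log2 difference of -0.15 over all measured genes. A gene could be measured through the library in which it was high; with the limits set on the mean of both libraries, 37 were higher and 58 lower of 1191. With shallower cells left out, the rest thinned to 1500 UMIs and the gate limits lowered, 107 were higher and 68 lower at a median of -0.02. With at least 30 collagen UMIs required, 118 were higher and 38 lower at a median of 0.03. The balance of directions thus depended on which cells were admitted. The share of Apod-led cells differed between the ages too, as given above, and its part in these differences was not tested.

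Apod, which the rule used and which is given as a description, stood at 3456, 2569.6 and 8874 CPM at P0, P3 and P7 (P7 over P0, 2.57 times, 2.31 to 2.85, the 95% counting interval of the ratio). Apoe, apolipoprotein E, stood at 3531, 3149.7 and 9607 CPM (P7 over P0, 2.72 times, 2.46 to 3.02), with 13.8% of its P7 UMIs in 1 cell. In skeletogenic stroma of the same libraries Apoe stood at 667, 1827 and 2060 CPM, so the higher level at P7 was shared with that class. Within Apod-led cells alone, Apoe stood at 3995, 4273 and 11307 CPM and was also highest at P7. Of 13 measured xenobiotic and lipid-handling genes, Apod, Apoe, Ptgds and Ptges were higher and Mgst1 and Mgst3 lower, with a median of 0.54, a count and median that include Apod and Inmt of the rule. Ptgds, a prostaglandin D synthase, had 0, 0 and 110 UMIs, with 98.2% of them in 1 cell.

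For Inmt, P7 over P0 was 1.88 times, 1.58 to 2.24, and for Cxcl12 1.09 times, 0.831 to 1.42, an interval that includes 1. Sfrp2 was lower at P7, with a ratio to P0 of 0.573 times, 0.471 to 0.694, and was highest at P3. Within Apod-led cells Sfrp2 stood at 1137, 2195 and 587 CPM, again highest at P3 and lowest at P7. In Acta2-high cells the log2 difference of P7 over P0 was 1.31 for Apod and 0.06 for Sfrp2.

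**Figure D5:**
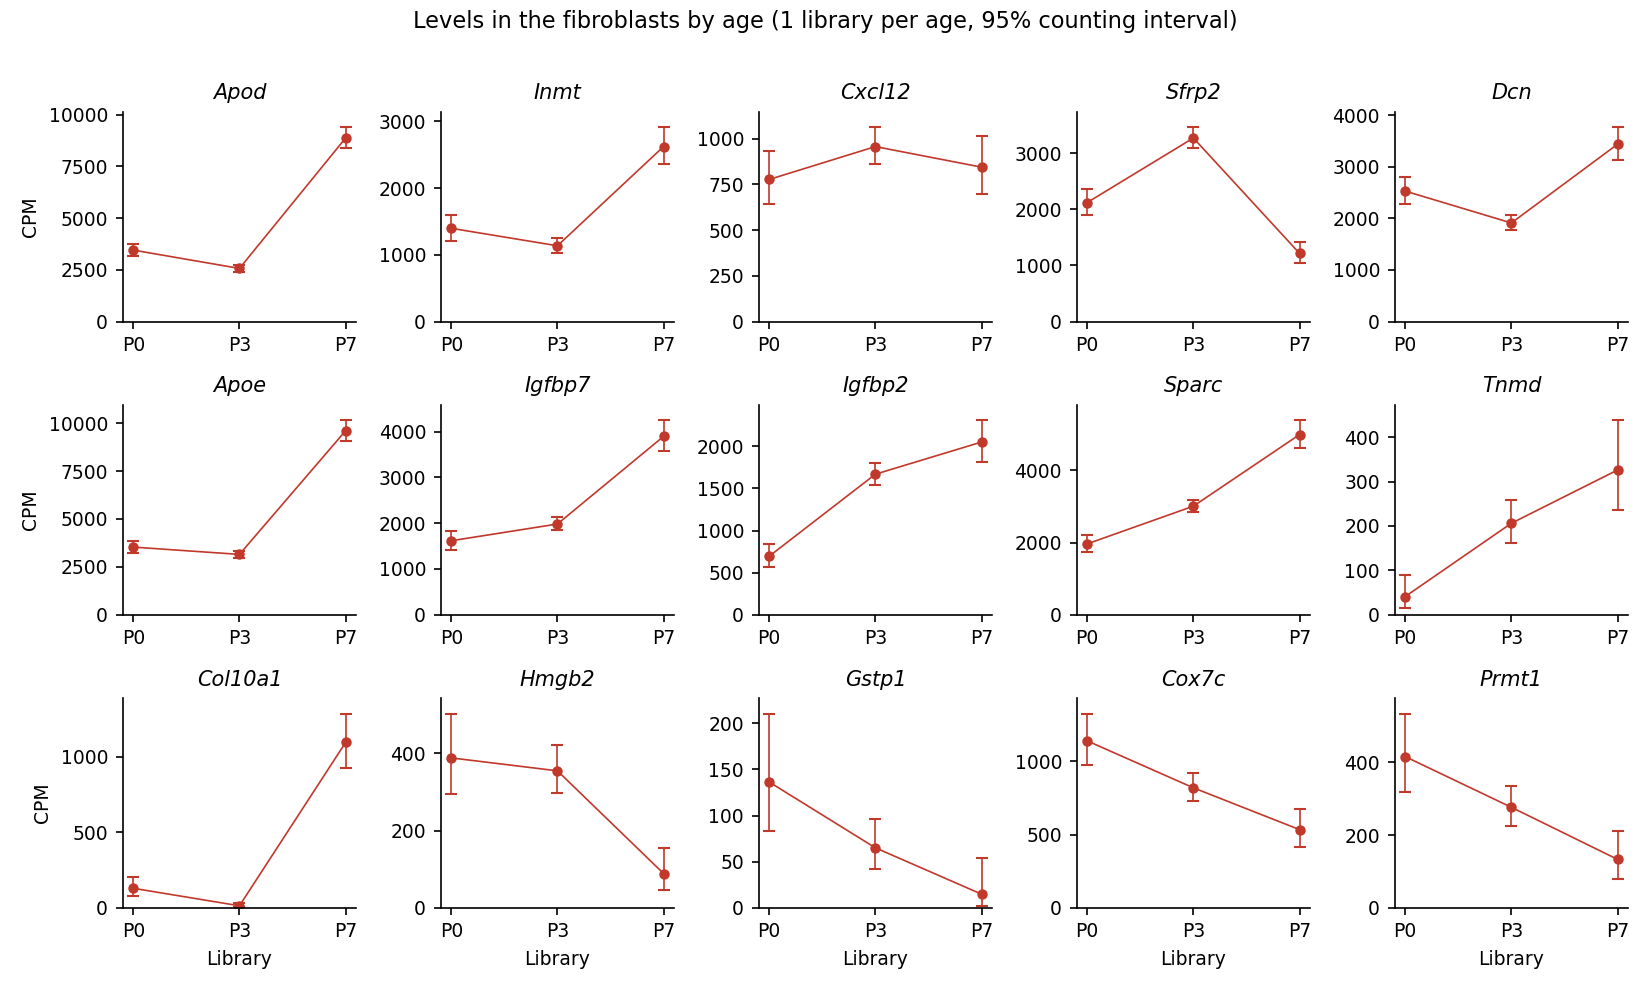
Levels in CPM of 15 genes in fibroblasts of the P0, P3 and P7 libraries, 1 library per age, with exact 95% Poisson intervals. Apod, Inmt and Apoe are highest at P7, at 8874, 2622 and 9607 CPM, Sfrp2 is highest at P3 at 3269 CPM, and Hmgb2, Gstp1, Cox7c and Prmt1 are lowest at P7.

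Binding proteins and several matrix genes stood on the higher side. Of 8 measured insulin-like growth factor axis genes, Igfbp2, Igfbp6 and Igfbp7 were higher and none lower, with a median of 0.42. Igfbp7 stood at 1616, 1981 and 3896 CPM at P0, P3 and P7 (2.41 times, 2.06 to 2.82), from 57, 108 and 41 cells. Igfbp2 stood at 695, 1669.7 and 2052 CPM (2.95 times, 2.34 to 3.74), with 28.2% of its P7 UMIs in 1 cell. Sparc, a collagen-binding glycoprotein, stood at 1963, 3009 and 4992 CPM (2.54 times, 2.21 to 2.93), from 65, 116 and 42 cells, which is every member at P3 and P7.

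None of 11 measured genes for collagen modification passed the fold in either direction, at a median of 0.38, and none of 6 small leucine-rich proteoglycans, at 0.40. Of 6 fibrillar collagens Col11a1 was higher, of 8 other collagens Col6a2 and Col10a1, of 10 elastic fibre genes Mfap5 and Hmcn1, of 7 matricellular genes Sparc and Ecm1, and of 9 proteases and inhibitors Ctsk, and none of these 5 lists held a lower gene. Ctsk, cathepsin K, which degrades collagen, stood at 164, 239 and 385 CPM. Pax9, a paired-box factor of craniofacial mesenchyme, was the 1 factor called of 16, at 136, 268 and 296 CPM. Over all 1468 measured genes 4.97% were higher and 6.34% lower. Lists this short were not tested against these shares, and 0 or 1 call in them is near these shares.

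Col10a1, the collagen known from hypertrophic cartilage, stood at 129.5 CPM at P0 (77.98 to 202), 13.6 at P3 (4.401 to 31.6) and 1096 at P7 (927 to 1288), from 19, 5 and 148 UMIs in 6, 2 and 9 cells. The richest cell held 27.03% of the P7 UMIs. Apod-led cells held 19, 2 and 147 of these UMIs, and Cxcl12-led cells held none. Skeletogenic stroma had no Col10a1 UMI in any of the 3 libraries, which allows up to 21.7, 3.53 and 15.1 CPM. Fibroblasts held 91.9% of all Col10a1 UMIs of the P7 library (95% exact binomial interval 86.6 to 95.6%), and Acan and Col2a1 had no UMI in P7 fibroblasts. That interval treats UMIs as independent draws, although they came from few cells, and does not cover the spread between cells.

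Tnmd, or tenomodulin, a tendon and ligament protein, stood at 40.9, 206 and 326 CPM in fibroblasts, from 2, 18 and 11 cells, and Scx, the tendon factor, had 0, 4 and 0 UMIs. Mfap5, a microfibril protein, stood at 27.3, 211 and 163 CPM from 3, 11 and 4 cells, and Cyp2e1, a cytochrome P450, at 20.5, 5.42 and 244 CPM from 2, 2 and 9 cells. Each of these was found in a minority of the fibroblasts. Golim4, Ly6e, Itih5 and Ppp1r12a were also among the 10 largest differences, with a log2 difference of 1.91 for Ppp1r12a. Coch, Senp6, Lrrc58, Slc3a2 and Creg1 led the genes that were higher at each step outside those 10.

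On the lower side Hmgb2, a chromatin protein abundant in dividing cells, stood at 389, 355 and 88.9 CPM in fibroblasts, from 57, 131 and 12 UMIs (0.229 times, 0.112 to 0.431), and Hmgb2 and Cdk1, the 2 genes measured of 32 in the G2 and M phase list, were lower, while the 1 measured S phase gene did not pass the fold. At P0, 1 cell held 38.6% of the Hmgb2 UMIs and 47.6% of the Cdk1 UMIs. Prmt1, an arginine methyltransferase, stood at 416, 276 and 133 CPM from 40, 56 and 14 cells (0.321 times, 0.178 to 0.5498). Gstp1, a glutathione transferase, stood at 136, 65.1 and 14.8 CPM from 20, 24 and 2 UMIs. Dazap1, Lsm7, Mgst1 and Polr2k were, with Prmt1, the leading genes lower at each step.

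Of 44 measured nuclear-encoded oxidative phosphorylation genes, Ndufc1, Uqcrh, Cox7c, Atp5k and Atp5l were lower and none higher, with a median of -0.33 beside -0.15 over all measured genes, of which 6.34% were lower. With at least 30 collagen UMIs required, Atp5l turned to a log2 difference of 0.23. Cox7c, a subunit of cytochrome c oxidase, stood at 1138, 819 and 533 CPM (0.468 times, 0.3503 to 0.621). The log2 difference of Cox7c was -1.08 in fibroblasts, -0.6 in skeletogenic stroma and -0.86 in Acta2-high cells. Sec61g, a translocon subunit, differed by -1.95 in fibroblasts, -2.94 in skeletogenic stroma and -2.26 in Acta2-high cells, so both genes were lower at P7 in all 3 classes. Pet100, Echs1, Rsl1d1, Cttn, Phax and Znrd1 completed the 10 smallest differences with Krt14, Gstp1, Hmgb2 and Sec61g. Krt14, a basal cell keratin, had 23, 18 and 0 UMIs, each time in 1 cell where present.

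Between neighbouring ages, 184 of 3207 measured genes were higher at P3 than at P0 (5.74%) and 31 lower (0.967%), and 63 of 3212 were higher at P7 than at P3 (1.96%) and 245 lower (7.63%). The P3 fibroblasts held 368930 UMIs, against 146690 at P0 and 135008 at P7, so genes of low level passed the limit of 20 UMIs most often through P3. Of 14 measured fetal and imprinted growth genes, H19, Dlk1 and Meg3 were higher at P3 than at P0 and none lower, and H19, Cdkn1c and Grb10 were lower at P7 than at P3 and none higher. H19, an imprinted noncoding RNA, stood at 593, 1851 and 674 CPM at P0, P3 and P7, Meg3, another, at 886, 2114 and 1555 CPM and Cdkn1c at 661, 1288 and 393 CPM. Other genes of the list had other orders, and Mest, an imprinted hydrolase-like gene, stood at 123, 130.1 and 170.4 CPM. The share of Cxcl12-led cells, in which Cdkn1c and Dlk1 were higher, was 17.4, 31.0 and 19.05% at these ages, and its part in the order was not tested. Of the 5 genes with the sharpest P3 maximum, Bpifa1, Reg3g, Gfra3 and Ccl20 had 88.2 to 100% of their P3 UMIs in 1 cell, and Kcne4, a potassium channel subunit, had 24 UMIs in 17 cells.

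At P21 the 6 fibroblasts held 12873 UMIs in all, and each was led by Apod. Apod stood at 43735 CPM (exact Poisson interval 40197 to 47502), Inmt at 3651, Apoe at 15847 and Dcn at 3418 CPM, and Cxcl12 had 5 UMIs. Sfrp2 and Col10a1 had no UMI, which allows up to 233 CPM. No fold was taken from so few cells.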

How the data were processed

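The deposited values are UMI counts per gene and cell, 1 table for each of the P0, P3, P7 and P21 libraries, and were used as raw counts made by the authors. Per the submitters' processing notes, build mm10 was used with Cell Ranger 2.1.1 and with Seurat, whose version the sources used here do not give. All values are whole numbers, and totals differ between cells.

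Cells were classed by the stated limits, and UMIs were summed per library and class. The members, gene lists and comparisons were chosen with earlier results of these data known. Class differences were tested with edgeR 4.0.16 (quasi-likelihood, TMM scaling, library as block, R 4.3.3, limma 3.58.1), and DESeq2 1.42.0 was an alternative. The block rests on both classes coming from 1 library. The 11 genes of the rule stayed out of the class counts, and those measured are in the age counts. Ages have 1 library each, so no test was made between them and genes are called by fold. The genes named are the 12 largest and 12 smallest called fold changes per class comparison (at least 50 CPM in the higher class and 1 direction in all 3 libraries), the 10 largest and smallest age differences, stepwise changes, and list members that were called; some of these genes are not reported here. The class test and the age rule were checked on simulated counts. Promoters were matched by symbol. Other code used Python 3.11.15, numpy 2.4.6, scipy 1.17.1, pandas 2.3.3 and matplotlib 3.10.9.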

Additional observations from a re-analysis of the deposited data

Results flagged for a closer look

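Rsl1d1, a nucleolar protein, was lower at P7 than at P0 in fibroblasts, by -1.88 on the log2(CPM + 10) scale, and higher in Acta2-high cells of the same libraries, by 1.39. It stood at 218, 108 and 51.8 CPM in fibroblasts of P0, P3 and P7, from 32, 40 and 7 UMIs, and at 45.8, 121 and 137 CPM in Acta2-high cells, from 5 UMIs at P0 and 40 at P7. Opposite directions in the 2 classes drew attention to it, and the difference between them was not tested.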

How the results depend on the processing

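Each age is 1 library and the members are few, so counting error limits single genes and no comparison of ages has a replicate. Counts below give higher genes, then lower genes, and the cause of each change was not tested. P7 over P0 gave 73 and 93. With a pseudocount of 50 CPM these were 39 and 49, with no filter on low values 1151 and 1531, with at least 100 CPM and 50 UMIs 22 and 27, with a 1.5-fold call 202 and 318, and with at least 30 collagen UMIs 118 and 38. Measured by the mean of both libraries, an alternative chosen after seeing the data, they were 37 and 58. P3 over P0 gave 184 and 31, and P7 over P3 63 and 245. Against skeletogenic stroma (172 and 77), no filter on low counts gave 352 and 214, DESeq2 117 and 48, and leaving out 1 library 161 to 265 and 69 to 120. Against Acta2-high cells (69 and 67), no filter gave 90 and 120, DESeq2 21 and 25, and leaving out 1 library 73 to 93 and 58 to 90.

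The library pairs the classes, since both come from the same cell suspension. With no replicate block, the counts were 153 and 69 against skeletogenic stroma and 26 and 36 against Acta2-high cells. Without cells of shared barcodes, chosen after seeing the data, they were 173 and 80, and 62 and 62. Without the Bpifa1 cell they were 170 and 77, and 68 and 64. Both settings removed members at P3 only, so the 73 and 93 of P7 over P0 could not change.

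Members were 0.520, 1.93 and 1.68% of passing cells at P0, P3 and P7 with at least 30 collagen UMIs. Thinning to 1500 UMIs left out shallower cells, with the collagen and Acta2 limits set to 5 UMIs and the Omp limit to 1. Members were then 1.83% of passing cells and 33.1% of collagen-gated cells at P0. Unthinned, Apod was detected in 82.6% of members at P0 and 76.7% at P3, and Cxcl12 in 66.4% at P3. Of single age genes, Atp5l reversed, with a log2 difference of 0.23 at 30 collagen UMIs, and 709 values of such genes moved by less than counting error, against 38 that moved by more. The 709 include 68 values without shared barcodes and 68 without the Bpifa1 cell, which could not change because only P3 members were removed. Where they were still tested, class genes kept direction and call in 1148 of their alternatives against skeletogenic stroma and lost the call in 86. Against Acta2-high cells these numbers were 454 and 83. Alternatives in which a gene fell below the filter on low counts, and so was not called, are in none of these numbers.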
